A study of Drosophila melanogaster with 4 samples.

Results

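Clusters of histone H4 lysine 8 acetylation (H4K8ac) in the euchromatin of the X chromosome were examined in head nuclei of adult Drosophila melanogaster. A cluster is a region that the authors listed as enriched in chromatin immunoprecipitation with sequencing (ChIP-seq) over its input. Members were the enriched regions on X that ended at or before position 20000000 of the X sequence, which is 22.4 Mb long in FlyBase release 5. Replicate 1 had 1267 members among its 8148 clusters, and replicate 2 had 1214 among 8140. The combined set that the authors deposited beside the replicates had 1933 among 10650. One cluster of replicate 1 and 1 of the combined set ran across this position and were left out. Another 72, 61 and 142 clusters of X in the 3 lists lay wholly beyond it.

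All 4 samples came from heads of wild-type Oregon-R flies of mixed adult age, 2 of them H4K8ac ChIP libraries and 2 the matched inputs. The labels name no transgene, mutation or treatment, and they give no sex, so the proportion of males is unknown. Heads hold neurons, glia, photoreceptors, fat body and muscle, and fewer acetylated cells cannot be told apart from less acetylation per cell. The lists carry no gene readout against which the tissue label could be checked. The labels do not say whether the replicates came from separate collections, so their spread may be technical. No test between stretches of X was run, since an exact two-sided sign test over 2 replicates cannot go below p = 0.5. The values after ± below are the SD of a level over the replicates and not that of a difference between stretches.

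Acetylation of lysine 8 removes a positive charge from the tail of histone H4 and makes a mark that bromodomain proteins can bind. Acetyltransferases add it and deacetylases take it away, and it is found mainly at active promoters and along transcribed chromatin. The fly X is also the chromosome on which the male-specific lethal complex acts, whose acetyltransferase MOF modifies another lysine of the same tail, lysine 16. The X sequence runs from the telomere at low coordinates to the centromere at high ones, and the last part, left out here, passes into pericentromeric heterochromatin. No gene is named for any region, because no annotation of release 5 was used here, and no DNA sequence is shown for the same reason.

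The acetylated part of X euchromatin consisted mostly of short blocks. Replicate 1 clusters covered 3.75 Mb or 18.8% of the 20 Mb, and replicate 2 clusters 3.39 Mb or 16.9%, a mean of 17.8% ± 1.30 (SD, n = 2). The median length was 2012 bp in replicate 1 and 1985.5 bp in replicate 2. Clusters shorter than 2000 bp made up 48.7% and 51.1% of the members, and the shortest measured 1301 bp in both lists. At the other end, 31 clusters in each replicate reached at least 10 kb. These long domains were 2.45% and 2.55% of the clusters but held 11.5% and 12.6% of the covered bases.

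Enrichment on X was a little under 2-fold for the typical cluster. The authors' score was read as the log2 ratio of ChIP to input, since 2 raised to the score gave a ratio of whole numbers times 1 constant for 100% of the members of each list. Read with base e or 10, at most 0.906% did. The median score was 0.81 in replicate 1 and 0.76 in replicate 2, which are 1.76-fold and 1.70-fold. The lowest member scored 0.38 in replicate 1 and 0.42 in replicate 2. A score of at least 1, or a doubling over input, was reached by 127 clusters in replicate 1 and 48 in replicate 2.

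Longer clusters of X had higher scores. Clusters of at least 10 kb had a median score of 1.07 in replicate 1 and 0.99 in replicate 2, while those under 2000 bp had 0.73 and 0.70. Across clusters, Spearman's rho of length with score was 0.638 over 1267 clusters of replicate 1 and 0.600 over 1214 of replicate 2. Clusters of 1 list share a library and a threshold, so this is a description without a p-value. A short region may also need a different ratio to be listed than a long one, which was not tested.

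**Figure D1:**
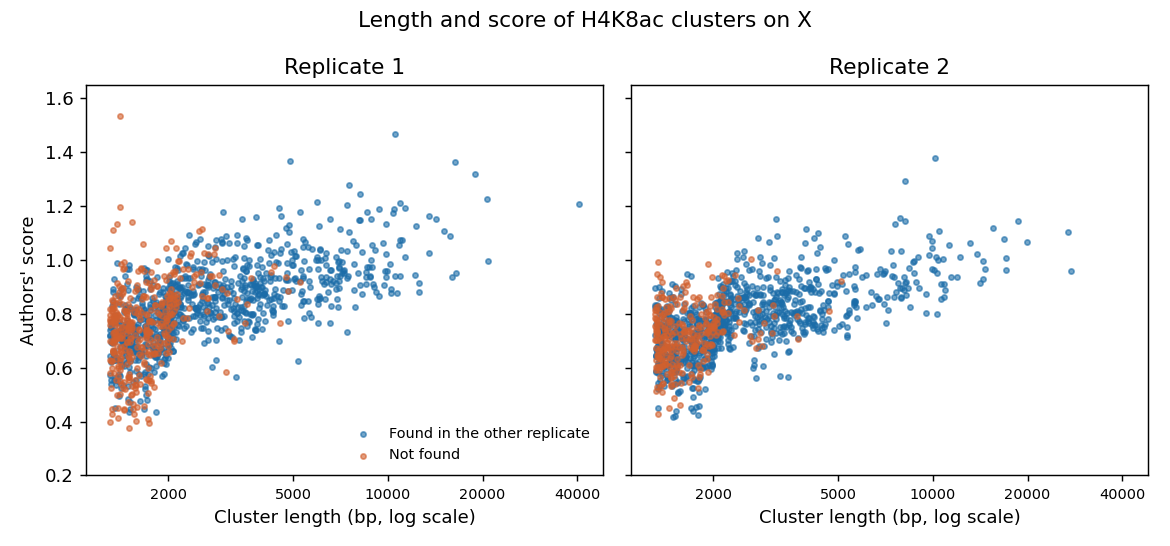
Each point is 1 cluster of X euchromatin, with its length in bp on a log axis and the authors' score on the vertical axis, for replicate 1 and replicate 2. Blue clusters overlapped a cluster of the other replicate by at least 1 bp and orange ones did not; all 31 clusters of at least 10 kb in each replicate are blue, and orange clusters lie mainly at the short end.

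The 10 longest domains of X that could be paired between the replicates measured between 11.0 and 24.1 kb on average. To be paired, a replicate 1 and a replicate 2 cluster had to overlap by at least 50% of each, which gave 588 pairs with a median mean length of 2271 bp. In 12 of these pairs both clusters reached 10 kb. Of the 10 longest pairs, 5 lay in the first 5 Mb from the telomere. All 10 scored above the median of their list in both replicates, with scores from 0.91 to 1.36.

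The longest pair lay at X 968810 to 989424 in replicate 1 and at X 970336 to 997860 in replicate 2. Its lengths were 20.6 kb and 27.5 kb, a mean of 24.1 kb ± 4.89 (SD, n = 2), and its scores were 1.23 and 0.96. The second pair lay at the far end, at X 19282507 to 19296030 in replicate 1 and 19276670 to 19303641 in replicate 2. Here the replicates disagreed more on extent, with 13.5 kb against 27.0 kb, than on height, with scores of 1.16 and 1.10.

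The third longest pair had nearly the same borders in both libraries. It ran over X 1308753 to 1327620 in replicate 1 and 1308693 to 1327345 in replicate 2, or 18.9 and 18.7 kb, with scores of 1.32 and 1.15. The fourth, at X 2187226 to 2203616 and 2187408 to 2202981, measured 16.4 and 15.6 kb and scored 1.36 and 1.12. Both were thus well reproduced in position and lower in replicate 2 in score.

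The other 6 of the 10 lay on both the telomere side and the centromere side of the region. The fifth pair, at X 10623324 to 10637513 in replicate 1, measured 14.2 and 16.9 kb and scored 1.15 and 1.08. The sixth, at X 18287288 to 18303718, measured 16.4 and 14.1 kb and scored 0.95 and 0.91, the lowest mean score of the 10. The seventh, at X 2540474 to 2552746, measured 12.3 and 17.1 kb, and the eighth, at X 786502 to 801533, measured 15.0 and 12.2 kb. The ninth, at X 12636782 to 12644927, was the one with a replicate 1 cluster under 10 kb, at 8.15 kb against 14.5 kb. The tenth, at X 9231254 to 9242065, measured 10.8 and 11.3 kb and scored 1.05 in both replicates.

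**Figure D2:**
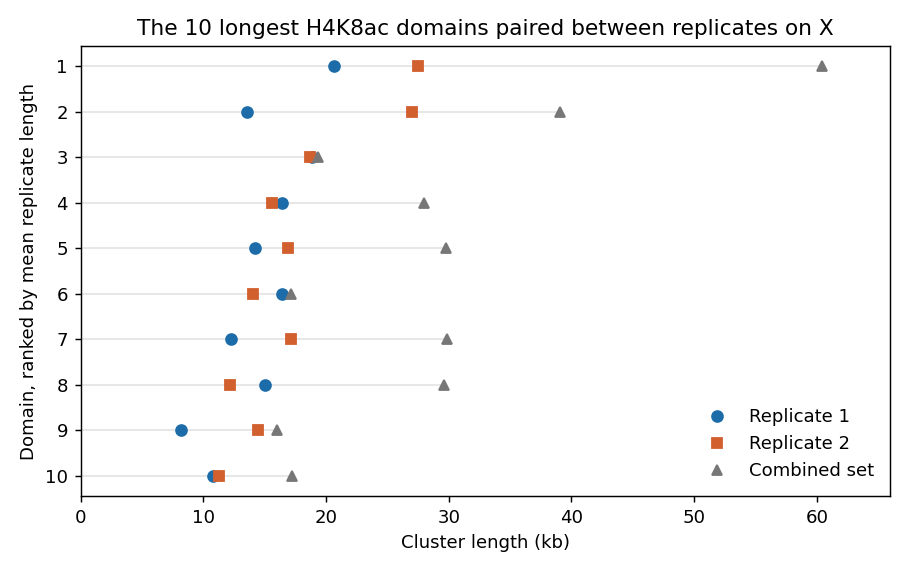
Length in kb of the 10 longest paired domains, ranked from top to bottom by the mean of the replicates; circles are replicate 1, squares replicate 2 and triangles the cluster of the combined set at the same place. The combined cluster was the longest of the 3 in each case, from 16.0 kb for the ninth domain to 60.4 kb for the first, and the replicates lay closest for the third domain at 18.9 and 18.7 kb.

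Several of the largest acetylated blocks of X were 1 cluster in the combined set and several in a replicate. The longest combined cluster spanned 60.4 kb at X 968598 to 1029045, with a score of 0.90, and contained the longest replicate pair. Replicate 1 listed 9 pieces in it, which covered 84.3% of its bases, and replicate 2 listed 6 pieces, which covered 82.1%. The second spanned 51.5 kb at X 4997989 to 5049530 with a score of 0.80. It was split into 8 pieces in replicate 1 and 12 in replicate 2, covering 84.5% and 72.5%, so it is absent from the longest pairs although it was acetylated over most of its length in both libraries.

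The third combined cluster, 41.0 kb at X 737514 to 778549, was whole in one library and broken in the other. Replicate 1 had it as 1 cluster of 40.7 kb, the longest of that list, with a score of 1.21. Replicate 2 had it as 3 clusters of 17.1, 2.00 and 19.9 kb with scores of 0.96, 0.72 and 1.07. The pieces covered 95.04% of the combined cluster in replicate 2, against 99.1% in replicate 1. The fourth and the fifth combined clusters measured 39.0 kb at X 19265035 to 19304079 and 36.3 kb at X 1145910 to 1182161, and both were listed in 3 to 5 pieces per replicate.

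Splitting was common among long acetylated stretches of X. The combined set had 126 clusters of at least 10 kb, which held 30.5% of its covered bases. Each of them touched at least 1 cluster in both replicates, 93 were in more than 1 piece in both, and 10 were a single piece in both. The median number of pieces was 3 in either replicate, and the pieces covered a median of 77.9% of the long cluster in replicate 1 and 76.1% in replicate 2. The combined set was made from the same libraries, so these shares describe how the lists divide the chromatin and are no independent check. When clusters less than 500 bp apart were merged, shared long domains numbered 31 in place of 12.

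The highest paired clusters of X were long ones, with mean lengths from 4.23 to 20.2 kb, and 6 of the 10 averaged at least 10 kb. The top pair, at X 6751736 to 6762252 in replicate 1 and 6752042 to 6762169 in replicate 2, scored 1.47 and 1.38, or 2.77-fold and 2.60-fold over input. It measured 10.5 and 10.1 kb, and was also the highest member of the replicate 2 list. The second pair, at X 6230863 to 6239033, scored 1.25 and 1.29 over 8.17 kb in each replicate. It was the only one besides the tenth of these 10 in which replicate 2 scored higher.

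The third highest pair, at X 10262225 to 10267115, scored 1.37 and 1.16 and measured 4.89 and 7.83 kb. The fourth and the fifth places were taken by the domains at X 2187226 and X 1308753 described above, and the eighth by that at X 19282507, so 3 of the 10 highest were also among the 10 longest. The sixth pair, at X 1974651 to 1985540, scored 1.21 and 1.07, and the seventh, at X 1117951 to 1128424, scored 1.19 and 1.09. The ninth, at X 1902682 to 1907944, scored 1.18 and 1.09, and the tenth, at X 18534351 to 18541843, scored 1.10 and 1.13. Of these 10 pairs, 5 lay in the first 5 Mb.

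The single highest score of a list did not always belong to a reproducible cluster. The highest member of replicate 1 was a region of 1402 bp at X 11481433 to 11482834 with a score of 1.54, and no replicate 2 cluster overlapped it. The whole numbers read from its score were 45 for ChIP and 16 for input, in lowest terms, where a factor common to both counts would be lost. For the top pair the numbers read in replicate 2 were 1589 and 744. In the combined set the highest member was a region of 1002 bp at X 2965028 to 2966029 with a score of 3.62 and whole numbers of 11 and 1. These 2 clusters were singled out after their values were seen. Across all clusters, those found in the other replicate had the higher median score in both lists, as given below.

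Along X, coverage in both replicates was highest in the first 5 Mb from the telomere and lowest in the last 5 Mb. It did not fall evenly. Within the last 5 Mb the mean of the replicates was lowest at 16 to 17 Mb, at 8.51%. It then rose toward the centromere, to 14.5% at 17 to 18 Mb, 17.3% at 18 to 19 Mb and 19.8% at 19 to 20 Mb. In steps of 5 Mb, clusters covered 21.5% ± 2.14, 17.0% ± 1.67, 18.8% ± 0.971 and 14.1% ± 0.422 (SD, n = 2 for each). The first step exceeded the last by 8.65 percentage points in replicate 1 and 6.21 in replicate 2. In both replicates the first 5 Mb had the highest coverage, at 23.1% and 20.0%, and the last the lowest, at 14.4% and 13.8%. The middle steps had the same order in both lists as well, with 18.1% and 15.8% for the second and 19.5% and 18.1% for the third. In the combined set the 4 steps were covered to 37.9%, 33.4%, 39.1% and 27.2%, so the third was highest there. Over 200 windows of 100 kb, Spearman's rho of coverage with position was -0.169 for replicate 1 and -0.112 for replicate 2. The combined set gave -0.134. These are small values over windows that share libraries and neighbours, and no p-value is given.

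The first 5 Mb from the telomere held the most long domains in both lists. Replicate 1 had 14, 5, 6 and 6 clusters of at least 10 kb in the 4 steps, and replicate 2 had 12, 6, 5 and 8. Clusters of any length numbered 332, 321, 366 and 248 in replicate 1 and 317, 296, 360 and 241 in replicate 2. The count was thus highest in the third step, where coverage was second highest. Clusters with a score of at least 1 numbered 50, 30, 24 and 23 in replicate 1 and 22, 8, 7 and 11 in replicate 2. Both lists had the most of them in the first step.

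The typical cluster was slightly shorter in the third and the last step than in the first and the second. Its median length was 2066 bp ± 23.3 in the first 5 Mb and 2030.5 bp ± 13.4 in the second (SD, n = 2). It was shortest in the third, at 1917 bp ± 12.7, and measured 1942 bp ± 2.83 in the last. The median score went from 0.84 in the first step to 0.79 in the third and 0.82 in the last in replicate 1. In replicate 2 it stayed between 0.75 and 0.77. Spearman's rho of score with position was -0.104 in replicate 1 and -0.037 in replicate 2. The inferred density of input reads, taken as the 75th percentile over clusters of at least 2000 bp, lay between 51.0 and 53.7 per kb over the 4 steps in replicate 1 and between 62.5 and 67.1 in replicate 2.

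At a finer scale X held a few low stretches. Steps of 1 Mb ranged from 5.66% ± 2.57 at 7 to 8 Mb to 26.1% ± 3.05 right beside it at 6 to 7 Mb (SD, n = 2). At 7 to 8 Mb, replicate 1 had 37 clusters covering 7.47% and replicate 2 had 18 covering 3.84%. At 6 to 7 Mb the lists had 96 clusters over 28.2% and 87 over 23.9%. The low stretch also had the lowest median score of the 20 steps in replicate 2, at 0.68, and a median of 0.76 in replicate 1. Another pair of low steps lay at 15 to 16 Mb, with 10.4% ± 0.138, and at 16 to 17 Mb, with 8.51% ± 0.700.

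In the stretch of low coverage at 7 to 8 Mb, the inferred density of input reads differed from the median step in opposite directions in the 2 replicates. The inferred density there was 69.4 per kb over 12 clusters in replicate 1, where the median of the 20 steps was 50.8. In replicate 2 it was 57.0 over 7 clusters against 63.9, and in the combined set 116 over 22 clusters against 117. The density is read inside called clusters alone, so it does not describe the sequence between them, and mappability was not tested. The combined set put the same stretch second lowest, at 16.8%, after 15.4% at 16 to 17 Mb.

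**Figure D3:**
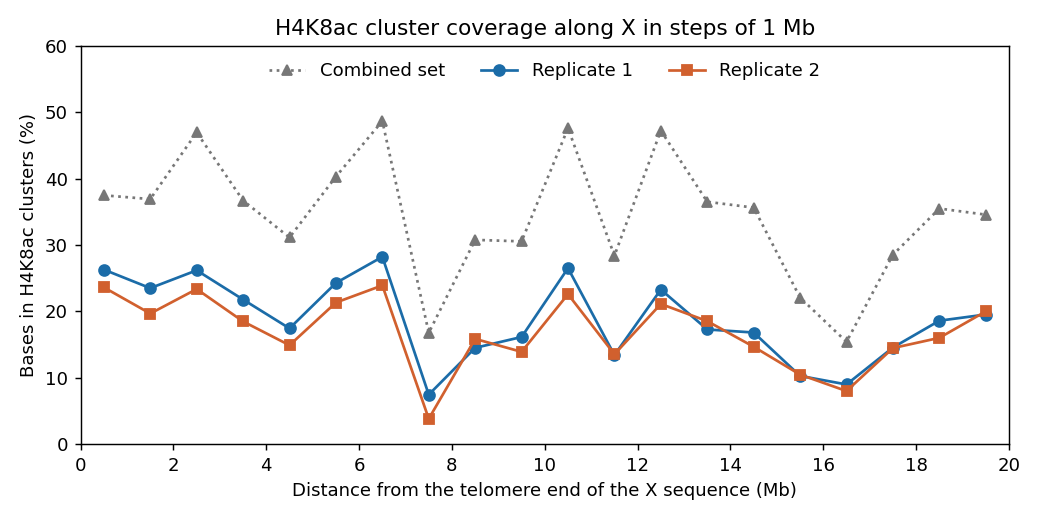
Share of bases in H4K8ac clusters in each of 20 steps of 1 Mb, plotted against distance from the telomere end of the X sequence, for replicate 1 (circles), replicate 2 (squares) and the combined set (triangles). The replicates follow the same course, with the lowest point in the step from 7 to 8 Mb at 7.47% and 3.84%, next to the highest at 28.2% and 23.9%.

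Windows of 100 kb in X euchromatin ranged widely in coverage, from empty to dense. In replicate 1 the median window was covered to 15.7%, with quartiles of 6.80% and 29.1%. In replicate 2 the median was 13.5%, with quartiles of 5.10% and 27.3%. The 20 most covered of the 200 windows held 26.2% of the covered bases in replicate 1 and 26.7% in replicate 2. At the low end, 40 windows of replicate 1 and 50 of replicate 2 had under 5% of their bases in clusters. Coverage followed the number of clusters in a window, with rho of 0.917 and 0.920, more than their median length, with rho of 0.422 over 183 windows and 0.442 over 181 windows that had a cluster. In the combined set these rho were 0.747 and 0.469. Coverage is made up of the number and the lengths of clusters, so some relation with each is given by construction.

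Neighbouring windows were weakly alike. Pearson's r between the coverage of a window and that of the next was 0.265 in replicate 1 and 0.210 in replicate 2. At a distance of 2 windows it was 0.103 and 0.067, and at 10 windows, or 1 Mb, it was 0.081 and 0.053. Most of the likeness between neighbours was thus gone at a distance of 2 windows.

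In 11 windows at least 40% of the bases lay in clusters in both replicates. By steps of 5 Mb they numbered 4, 2, 3 and 2. The densest was X 5000001 to 5100000, covered to 79.7% in replicate 1 and 64.0% in replicate 2, which holds most of the 51.5 kb combined cluster. It also had the largest difference between replicates of any window, at 15.7 percentage points. The second was X 700001 to 800000, at 71.4% and 64.4%, which contains the 40.7 kb cluster of replicate 1.

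The next windows were lower by a clear step. X 19300001 to 19400000 was covered to 52.7% and 51.0%, and X 10500001 to 10600000 to 54.6% and 46.4%. X 9300001 to 9400000 followed with 53.0% and 47.9% from 19 and 16 clusters, the most clusters among the 10 densest windows in replicate 1. X 12600001 to 12700000 had 47.1% and 52.0%, and X 900001 to 1000000 had 51.2% and 46.9%. The other 3 of the 10 densest were X 10200001 to 10300000, X 1100001 to 1200000 and X 2600001 to 2700000, with means of 48.5% ± 0.897, 48.2% ± 1.21 and 44.1% ± 3.77 (SD, n = 2). Of the 10, 4 lay within the first 3 Mb.

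Windows without any cluster were spread over all of X euchromatin. No base lay in a cluster of either replicate in 14 windows, or 7% of the 200, with 5, 3, 2 and 4 of them in the steps of 5 Mb. A further 7 windows were empty in 1 replicate alone. The combined set left 11 of the 14 empty too and put 5 clusters in the other 3, covering at most 2.59% of a window. Empty windows stood alone except for 1 run of 2 windows at X 4300001 to 4500000. The first window of the sequence was empty, and the first cluster began at 170206 in replicate 1 and at 170139 in replicate 2.

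The longest bare stretch of X, free of clusters in both replicates, measured 292.5 kb at X 4250692 to 4543189. It ended 456.8 kb before the densest window. The combined set had 4 clusters touching it, which covered 0.994% of its bases. The second measured 216.9 kb at X 11716752 to 11933670 and the third 205.03 kb at X 15788177 to 15993202, which lies in the low stretch at 15 to 17 Mb. The fourth, 198.7 kb at X 173965 to 372672, lay close to the telomere end, and the fifth measured 193.1 kb at X 8584707 to 8777787. In all 5 the combined set covered at most 3.61% of the bases.

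Bare stretches took up a large part of X. Those of at least 50 kb numbered 69 and made up 34.8% of the 20 Mb, and the 24 of at least 100 kb made up 19.0%. Bases in a cluster of neither replicate were 76.4% of the region in all. Regions without calls may also be regions with few usable reads, which was not tested.

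Within the acetylated stretches, clusters lay close together. The median spacing from the end of a cluster to the start of the next was 3238 bp in replicate 1 and 3253 bp in replicate 2. The mean spacing was larger, at 12670 and 13527 bp, because a few gaps were very long. Gaps under 500 bp made up 15.9% and 13.9% of all gaps, while 78 gaps of replicate 1 and 75 of replicate 2 reached at least 50 kb. These few gaps held 38.7% and 42.0% of the region. By steps of 5 Mb the median spacing in replicate 1 was 2698, 3172, 3467 and 4084 bp. In replicate 2 it was 3162, 2940, 3011 and 4235 bp, closest in the second step. Both lists had the widest spacing in the last step.

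**Figure D4:**
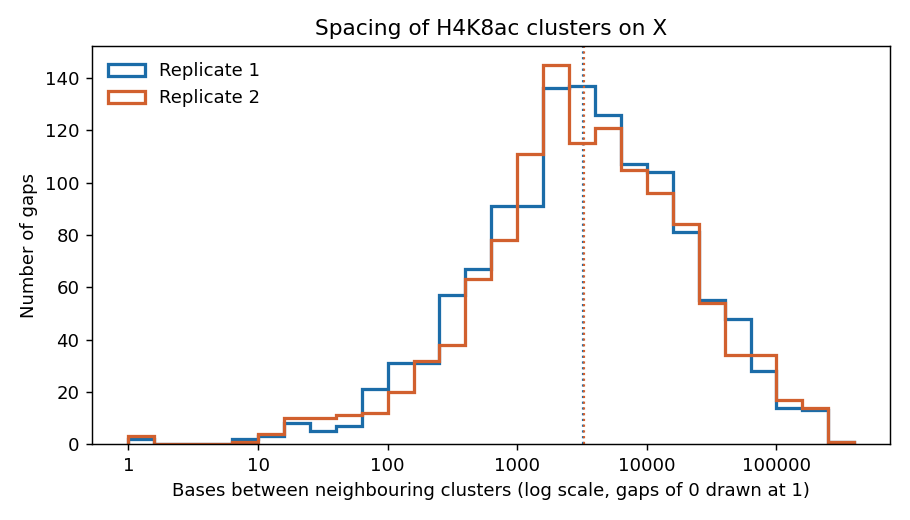
Number of gaps by the bases between neighbouring clusters, on a log axis, for replicate 1 (blue) and replicate 2 (orange); dotted lines mark the medians of 3238 and 3253 bp. Both curves have a broad peak between 1000 and 10000 bases and a tail to gaps of 294.3 and 307.0 kb.

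The replicates placed coverage in much the same windows of X, while single clusters matched less fully. Pearson's r of coverage between replicates was 0.950 over the 200 windows, which share neighbours and the same thresholds. The absolute difference per window had a median of 3.03 percentage points and a 90th percentile of 8.49. Replicate 1 was higher in 119 windows and replicate 2 in 67. By bases, the replicates shared 2.43 Mb, which was 64.7% of the replicate 1 clusters and 71.7% of those of replicate 2, with a Jaccard index of 0.515.

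**Figure D5:**
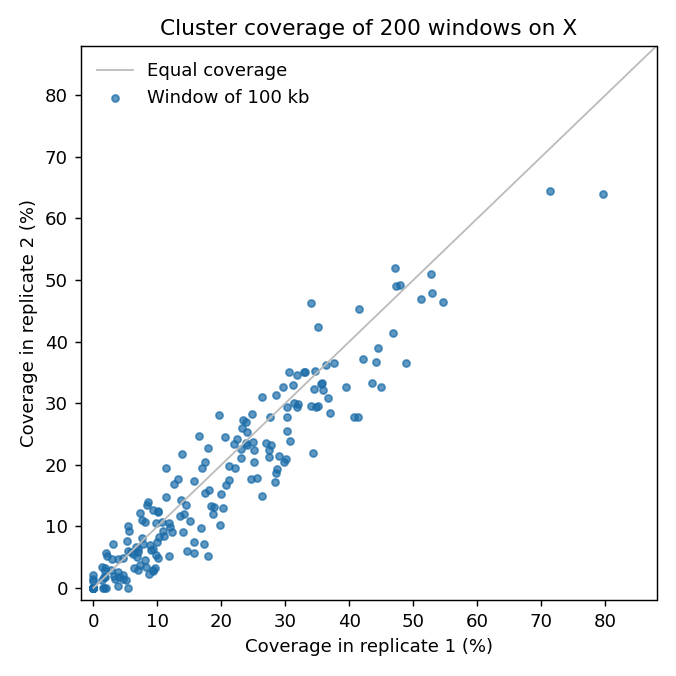
Coverage by clusters in replicate 2 against replicate 1, in percent, with 1 point for each of 200 windows of 100 kb and a line of equal coverage. Points lie along the line, more of them below it (119) than above it (67), and the window farthest from it is the densest one, at 79.7% and 64.0%.

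Of single clusters, 891 of 1267 in replicate 1 (70.3%, exact 95% binomial interval 67.7 to 72.8) shared a base or more with a replicate 2 cluster. Of the replicate 2 clusters, 924 of 1214 did so (76.1%, interval 73.6 to 78.5). The intervals are Clopper-Pearson, cover counting error alone and treat neighbouring clusters as independent, which they are not. With an overlap of at least 50% of both clusters, the shares were 46.4% and 48.4%.

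Longer clusters of X were found again more often. Under 2000 bp, 52.2% of the replicate 1 clusters were found in replicate 2 (exact 95% binomial interval 48.2 to 56.2) and 61.1% in the other direction (57.2 to 65.0). From 2000 to 5000 bp the shares were 83.7% (80.1 to 86.9) and 90.0% (87.0 to 92.5). From 5000 to 10000 bp, 127 of 128 and 82 of 83 were found, and all 31 of at least 10 kb in each list. A longer cluster also has more bases with which to touch another, and how much of the rise this gives was not tested.

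Clusters of X seen in 1 replicate were shorter and lower than those found again. The 376 of replicate 1 measured 1612 bp and scored 0.77 at the median, while clusters found again measured 2387 bp and scored 0.84. For the 290 of replicate 2 these medians were 1582 bp and 0.73, and for the rest 2135 bp and 0.77. Their median distance to the nearest cluster of the other replicate was 3042.5 bp and 2736 bp, and 23.9% and 25.2% of them lay within 1000 bp of one. At 10 kb or more from any lay 20.5% and 15.5%. The combined set overlapped 369 of the 376 and 286 of the 290.

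Paired clusters on X had been chosen for overlapping by at least 50% of each, which limits how far their borders and lengths can differ. Their starts differed by a median of 296 bp and their ends by 319.5 bp over 588 pairs, with 90th percentiles of 1435 and 1410 bp. Both borders lay within 100 bp of each other in 6.46% of the pairs. Scores of the pairs had a Spearman's rho of 0.587 and a Pearson's r of 0.629, and lengths a rho of 0.762, all across clusters and without a p-value. Replicate 1 scored higher in 394 of 588 pairs. Over all 588 pairs the score difference, replicate 1 minus replicate 2, had a median of 0.05 and an SD of 0.13.

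Among the steps of 5 Mb, agreement was highest in the first, which also had the highest coverage and the most long domains in both replicates. How much of the higher agreement this gives was not tested. In the 4 steps of 5 Mb the Jaccard index was 0.581, 0.507, 0.453 and 0.517. The rho of paired scores was 0.682 over 156 pairs, 0.596 over 150, 0.503 over 170 and 0.518 over 112. The median score difference, replicate 1 minus replicate 2, went from 0.06 in the first and second steps to 0.04 and 0.03. Among the steps of 1 Mb the Jaccard index ran from 0.347 in the low stretch at 7 to 8 Mb to 0.646 at 0 to 1 Mb. At the other end, at 19 to 20 Mb, it was 0.603.

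The combined set covered more of X euchromatin than either replicate. It covered 34.4% of X euchromatin with a median score of 0.55, a median length of 1999 bp and a median spacing of 1573 bp. Unlike in the replicates, its highest step of 5 Mb was the third, at 39.1%, against 37.9% in the first. Of its 1933 members, 630 (32.6%) touched clusters of both replicates, 499 (25.8%) of 1, and 804 (41.6%) of neither. Members touching both were long, at 5123 bp and a score of 0.66 for the median, and made up 64.8% of the combined bases. Those touching neither measured 1314 bp and scored 0.51 at the median, and made up 17.4%. Of these 804, 388 were shorter than 1301 bp, the shortest length in the replicate lists.

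Clusters on either side of the end of the region had scores in the range of the lists. The last 3 members of replicate 1 scored 0.90, 0.84 and 0.91 and measured 3758, 3915 and 2979 bp, and the next 3 clusters scored 0.80, 0.46 and 0.88. In replicate 2 the last 3 scored 0.80, 0.77 and 0.83, and the next 3 scored 0.67, 0.70 and 0.94. The last 3 members of the combined set scored 0.58, 0.48 and 0.55 and the next 3 scored 0.56, 0.64 and 0.59.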

How the data were processed

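H4K8ac ChIP-seq of adult fly heads gave 3 deposited lists, 1 for each ChIP replicate and 1 combined set. Groups and replicate numbers came from the sample titles. The deposited score per region is the authors' own value. Per the file headers, coordinates are those of FlyBase release 5, and per the submitters' processing notes Bowtie 0.12.7 was used. The sources used here do not give the caller, its threshold or how the combined set was made, and read totals are unknown. Enriched rows on X ending by 20000000 were taken, and coverage was counted over that span in steps of 100 kb, 1 Mb and 5 Mb. Whole-number ratios behind the scores were searched with denominators up to 50000 and a relative tolerance of 1e-13, and the constant was that giving the smallest numbers. This reading starts from the most frequent score, which recurred in 10 to 14 members of each list. They are in lowest terms, so true counts can be larger. Named regions were the 10 longest and 10 highest pairs, the 10 densest windows, runs of empty windows, the 5 longest bare stretches, the 5 longest combined clusters and the members at the region's end. The members, rules and alternatives were chosen with earlier results of these data known. No test was run on the 2 replicates. Overlap, coverage and ratio steps were tested on simulated data. Python 3.11.15, numpy 2.4.6, pandas 2.3.3 and scipy 1.17.1 were used.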

Additional observations from a re-analysis of the deposited data

How the results depend on the processing

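No paired analysis was possible because the groups that share replicate numbers are ChIP and input, and no input list was analysed here; stretches of X are compared within each replicate. The weak fall of coverage toward the centromere kept its sign under every alternative tried: mean rho was -0.141 as reported, -0.188 with windows of 200 kb, -0.194 up to 18 Mb, and from -0.169 to -0.112 with 1 replicate left out. Keeping the upper 50% of members by score gave 11.99% coverage, a Jaccard index of 0.464, 63.9% of clusters found again in place of 73.2%, 5 dense and 27 empty windows in place of 11 and 14, and a median spacing of 7455 bp. Merging clusters under 500 bp apart gave 31 shared long domains in place of 12 and a spacing of 4567 bp. An overlap of 50% gave 47.4% found again, by construction. Windows of 50 kb gave 41 dense and 71 empty ones, and windows of 200 kb gave 4 and 0; window size sets these counts. In the combined set coverage was 34.4% and spacing 1573 bp; the cause was not tested. Leaving out a replicate gave coverage from 16.9% to 18.8% and spacing from 3238 to 3253 bp. Values that need both replicates have none without one. Depth is unknown, so no error of a single score is given.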
